A study of Homo sapiens with 4 samples.

Results

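This account follows 32 genes of the cellular response to low oxygen that lie outside glycolysis, in rituximab-resistant lymphoma sublines and the lines they came from. They were taken as the listed members for which a probe set with exactly 1 gene symbol was found, with the brightest probe set by mean signal over the arrays standing for the gene. Of the 32 genes, 31 had such a probe set, out of 19775 genes with a value; the carbonic anhydrase gene CA9 had none. The 31 genes were read by 84 probe sets.

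The samples were Jeko-1/R, the rituximab-resistant subline of the mantle cell lymphoma line Jeko-1, set against parental Jeko-1, and Raji/R, the resistant subline of the Burkitt lymphoma line Raji, set against parental Raji. The labels describe the resistant cells as treated with rituximab, an antibody against the B-cell surface protein CD20, and the parental cells as not treated. Dose, time of exposure, oxygen level, cell density and whether a subline was a clone were not given in the sources used here. Each group was 1 array, so a ratio within a line has no replicate check and no p-value.

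Cells sense oxygen through the hypoxia-inducible factors, which are pairs of an alpha subunit (HIF1A or EPAS1) and ARNT. When oxygen is ample, the prolyl hydroxylases EGLN1, EGLN2 and EGLN3 mark the alpha subunit, VHL then directs its destruction, and the asparagine hydroxylase HIF1AN blocks its activity. When oxygen is short, the alpha subunit is stable and the pair switches on genes for blood vessel growth, mitochondrial turnover, lipid storage and collagen hydroxylation, and genes such as EGLN3 that limit the response. This control acts mainly on the HIF1A protein, which an RNA array does not measure. Germinal centres, the lymphoid sites where B cells mature, hold regions low in oxygen.

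Hypoxia-inducible factors bind a short core read as ACGTG or GCGTG. In the RefSeq promoter windows of build GRCh38.p14, which run from 250 bases before to 50 bases after a start site, 39 windows belonged to 26 of the 32 genes. ACGTG was found on either strand in 22 of the 39 windows (56.4%), against 7518 of 35116 windows of all genes (21.4%). GCGTG was found in 21 of the 39 windows (53.8%), against 36.5% of all windows. The palindrome CACGTG, which holds ACGTG on both strands and is also the E-box of other factors, was found in 10 of the 39 windows (25.6%), against 7.26% of all. Several genes have more than 1 window and some of these overlap, and a match describes letters and not a bound site. The windows of the changed genes ADM, P4HA1, ANKRD37 and BHLHE40, and of BNIP3, which had the most matches in 1 window, are shown with each match to ACGTG or GCGTG, or to its reverse complement CACGT or CACGC, in capitals.
ADM, chr11:10304823-10305122, plus strand: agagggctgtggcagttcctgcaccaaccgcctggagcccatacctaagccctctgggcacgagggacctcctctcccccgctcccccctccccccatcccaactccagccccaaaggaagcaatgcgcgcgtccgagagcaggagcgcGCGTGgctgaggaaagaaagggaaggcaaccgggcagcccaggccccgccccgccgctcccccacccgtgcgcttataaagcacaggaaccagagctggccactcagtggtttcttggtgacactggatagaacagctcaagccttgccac
P4HA1, chr10:73096817-73097116, minus strand: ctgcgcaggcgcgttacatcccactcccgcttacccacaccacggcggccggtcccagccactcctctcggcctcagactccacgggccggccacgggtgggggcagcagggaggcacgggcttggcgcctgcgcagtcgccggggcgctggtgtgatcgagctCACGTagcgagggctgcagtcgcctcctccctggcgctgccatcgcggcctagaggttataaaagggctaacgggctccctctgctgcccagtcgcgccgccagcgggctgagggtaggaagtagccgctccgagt
ANKRD37, chr4:185396591-185396890, plus strand: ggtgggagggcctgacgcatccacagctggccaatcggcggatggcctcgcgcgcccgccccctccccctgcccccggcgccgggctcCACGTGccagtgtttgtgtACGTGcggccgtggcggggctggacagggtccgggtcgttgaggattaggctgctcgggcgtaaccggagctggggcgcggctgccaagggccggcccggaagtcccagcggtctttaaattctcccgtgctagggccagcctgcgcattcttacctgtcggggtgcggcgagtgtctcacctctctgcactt
BHLHE40, chr3:4979187-4979486, plus strand: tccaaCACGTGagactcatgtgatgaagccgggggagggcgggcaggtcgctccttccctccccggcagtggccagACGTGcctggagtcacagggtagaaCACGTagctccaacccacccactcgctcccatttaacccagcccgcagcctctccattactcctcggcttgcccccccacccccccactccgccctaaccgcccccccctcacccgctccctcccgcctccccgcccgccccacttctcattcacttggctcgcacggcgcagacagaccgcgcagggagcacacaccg
BNIP3, chr10:131981874-131982173, minus strand: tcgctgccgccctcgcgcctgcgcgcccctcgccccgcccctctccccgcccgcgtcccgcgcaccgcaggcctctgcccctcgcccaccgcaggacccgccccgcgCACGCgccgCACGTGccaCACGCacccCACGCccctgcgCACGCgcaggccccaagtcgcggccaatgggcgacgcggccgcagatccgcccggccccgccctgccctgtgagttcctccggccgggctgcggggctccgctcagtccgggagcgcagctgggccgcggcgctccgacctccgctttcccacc
ADM had 1 match, 101 bases before its start site, and P4HA1 had 1 match, 86 bases before it. ANKRD37 had 2 separate stretches, with CACGTG 162 bases and ACGTG 143 bases before the start. BHLHE40 had 3 stretches between 245 and 149 bases before the start. BNIP3 had 5 stretches, all between 143 and 104 bases before the start. No match was found in the windows of ARNT, EGLN3, HIF1AN and P4HA2, which says only that these letters are not in those windows.

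Signals were MAS5 signals on a linear scale, and values under a floor of 77.5, the median of all deposited values, were raised to it before a ratio was taken. A gene was measured in a pair when at least 1 array reached the floor, and a ratio with 1 side under the floor is a lower bound, written "at least". A 2-fold difference, 1 on the log2 scale, was the size that counted as changed. As a stand-in for error, different probe sets of 1 gene differed in log2 ratio with a standard deviation of 0.27 for Jeko-1/R over Jeko-1 and of 0.56 for Raji/R over Raji, which is spread between probe sets and not between cultures. The Raji/R array had 55.6% of its probe sets at or above the floor, against 48.3% on the Raji array, and Jeko-1/R had 48.1%, against 48.0% for Jeko-1. All 7 measured B-cell markers reached the floor on every array, though the B-cell factor PAX5 had 5628 in Raji/R, against 13252 in Raji, 2.35-fold lower, and the mantle cell markers CCND1 and SOX11 did so on both Jeko-1 arrays and on 0 Raji arrays. Of 29 measured markers of T, NK, myeloid, erythroid, epithelial and stromal cells, 7 reached the floor in Jeko-1/R and 5 in Jeko-1, and 15 in Raji/R and 13 in Raji. The summed signals of these markers were 1487 in Jeko-1/R and 1527 in Jeko-1, and 6853 in Raji/R and 5082 in Raji. Of these markers 5 were at least 2-fold higher in Raji/R than in Raji, against 7.01% of all genes measured in the pair. Among markers measured in that pair they were 1 of 2 T-cell, 1 of 4 NK, 1 of 3 myeloid, 0 of 2 erythroid and 2 of 6 epithelial and stromal markers. At least 2-fold lower were 0, against 2.64%. Lower in Raji/R were 1 of 2 measured T-cell, 2 of 4 NK, 1 of 3 myeloid and 1 of 2 erythroid markers. So were 3 of 6 epithelial and stromal markers. The lowest was the NK marker PRF1, named after its values were seen, 1.98-fold lower. COL1A2, a collagen gene, had 264 in Raji/R, against 86.8 in Raji, while KRT18, S100A8, NCAM1 and CD3D, named after their values were seen, were at least 4.92-fold, 2.93-fold, 2.61-fold and 2.33-fold higher. The part of these markers in the results was not tested.

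**Figure D1:**
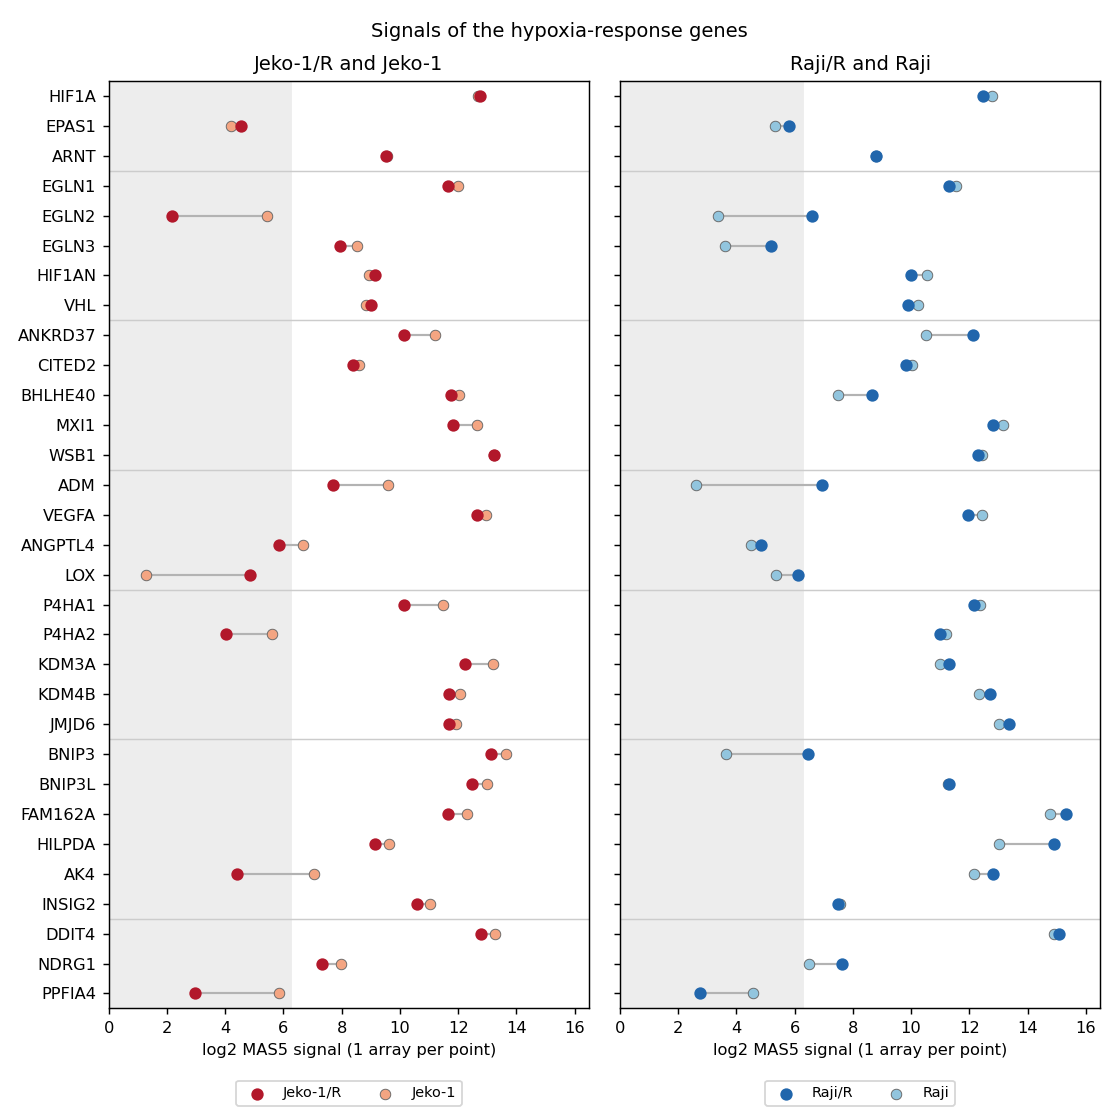
Log2 MAS5 signal of the 31 measured genes on each array, with the Jeko-1/R and Jeko-1 arrays in the left panel and the Raji/R and Raji arrays in the right panel, 1 point per array and a line joining the pair. Grey marks signals under the floor of 77.5, and horizontal lines separate the roles of the genes; EPAS1, LOX and PPFIA4 stood under the floor on all 4 arrays.

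Most of the hypoxia genes were lower in Jeko-1/R than in Jeko-1, and the shift reached 2-fold in ADM, P4HA1 and ANKRD37. Of 26 measured genes, 23 had a log2 ratio below 0, against 49.8% of the 11588 genes measured in the pair. At least 2-fold lower were 3 of the 26, against 0.595% of all genes, and 0 were 2-fold higher, against 0.38%. The median log2 ratio of the 26 genes was -0.45, against 0.00 for all genes measured. For 24 of the 26 both arrays were at or above the floor, and their median was also -0.45; a gene measured only through 1 array had to differ, which applied to AK4 and ANGPTL4. In Raji/R the 26 measured genes, 24 of them also measured in the Jeko-1 pair, did not share a direction. Of these 26, 15 were above 0, against 56.1% of 14642 genes, and their median was 0.10, against 0.08 for all. EGLN2, ADM and BNIP3 were measured there only through the Raji/R array and so had to be above 0. Of the 23 genes with both Raji arrays at or above the floor, 12 were above 0, with a median of 0.00, against 51.4% and a median of 0.02 over all such genes. In Raji/R 4 of the 26 were at least 2-fold higher, against 7.01% of all genes, and 0 were 2-fold lower, against 2.64%. The higher genes were HILPDA, ANKRD37, BHLHE40 and NDRG1. With the floor at the 75th percentile only HILPDA and ANKRD37 stayed past 2-fold higher, against 53 of 7821 genes. With no floor 7 genes were, against 2404 of 14642 genes. Among the 7 were EGLN2, ADM and BNIP3, whose Raji signals were under the floor.

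**Figure D2:**
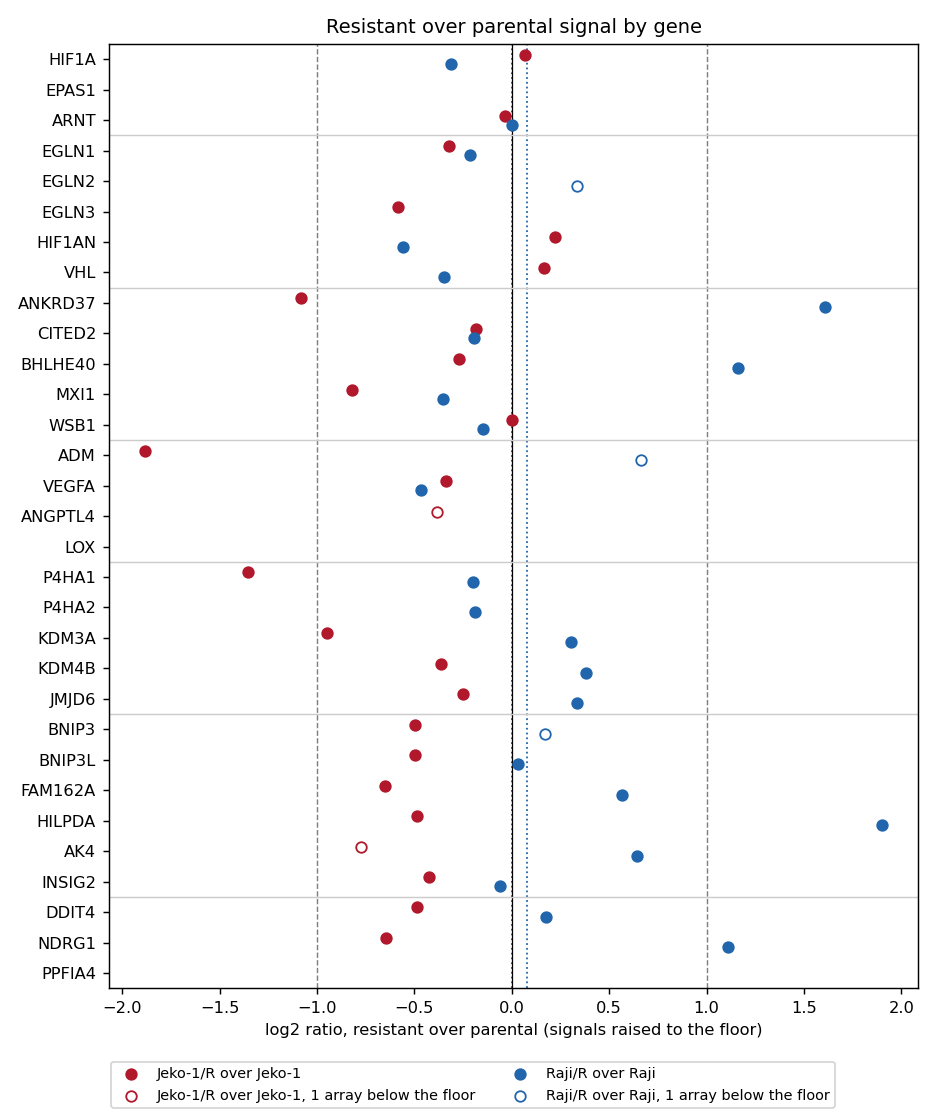
Log2 ratio of resistant over parental signal for each gene, in red for Jeko-1/R over Jeko-1 and in blue for Raji/R over Raji. Open points have 1 array under the floor, dotted lines mark the median of all genes of a pair and dashed lines 2-fold; the red points lie mostly left of 0, while the blue points lie on both sides.

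The factors themselves differed little. HIF1A, the oxygen-regulated alpha subunit, had a signal of 6934 in Jeko-1/R, against 6609 in Jeko-1, a log2 ratio of 0.07. It had 5651 in Raji/R, against 7022 in Raji, a log2 ratio of -0.31. Both ratios were smaller than the probe-set spread of their own pair. EPAS1, the other alpha subunit, stood under the floor on all 4 arrays, at 23.1 in Jeko-1/R and 18.5 in Jeko-1, and at 56.4 in Raji/R and 40.5 in Raji. ARNT, the shared partner, had 742 in Jeko-1/R and 761 in Jeko-1, and 449 in Raji/R and 448 in Raji, with log2 ratios of -0.04 for Jeko-1/R, with 0.00 for Raji/R. One dimmer ARNT probe set gave 374 in Jeko-1/R, against 196 in Jeko-1, a log2 ratio of 0.93.

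Among the oxygen sensors, EGLN3 and EGLN1 were lower in Jeko-1/R, while HIF1AN and VHL were not. EGLN3, a hydroxylase gene that the factors themselves induce, had 247 in Jeko-1/R, against 370 in Jeko-1 (log2 ratio -0.59), and its other probe set gave -0.35. In both Raji arrays EGLN3 was under the floor. EGLN1, the main sensor of most cells, had 3250 in Jeko-1/R, against 4062 in Jeko-1 (-0.32). Its 2 other measured probe sets in that pair gave -0.64 and -0.25. In Raji/R EGLN1 had 2540, against 2952 in Raji (-0.22), but its 3 other probe sets lay between 0.06 and 0.39. The highest was a bound, with 102 in Raji/R, against 31.2 in Raji. HIF1AN had 570 in Jeko-1/R, against 489 in Jeko-1 (0.22, with -0.16 and 0.43 from its other probe sets), and 1012 in Raji/R, against 1490 in Raji (-0.56), with -0.35 and -0.38 from its other probe sets in Raji/R. VHL, the substrate receptor of the ubiquitin ligase, stood at 0.16 in Jeko-1/R, with -0.35 in Raji/R. EGLN2 was measured only through the Raji/R array, at 97.7, and was at least 1.26-fold higher there than in Raji.

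Among the regulators and feedback genes, ANKRD37 was lower in Jeko-1/R yet higher in Raji/R, each by over 2-fold. ANKRD37, an ankyrin-repeat gene that hypoxia induces and whose promoter window carries 2 stretches of the core, had 1119 in Jeko-1/R, against 2372 in Jeko-1, a log2 ratio of -1.08. It had 4493 in Raji/R, against 1474 in Raji, a log2 ratio of 1.61. Its signal was thus highest in Raji/R and lowest in Jeko-1/R, with both parental lines between them. BHLHE40, a transcriptional repressor, had 3488 in Jeko-1/R, against 4212 in Jeko-1 (-0.27), and 406 in Raji/R, against 181 in Raji (1.16). Its other probe set stood at -0.83 in Jeko-1/R, with at least 0.57 in the Raji pair, where Raji was under the floor. MXI1, a MAX partner that opposes MYC, had 3650 in Jeko-1/R, against 6443 in Jeko-1 (-0.82), and 7164 in Raji/R, against 9165 in Raji (-0.36), so it was lower in both sublines. CITED2, which competes with the alpha subunit for its coactivators, stood at -0.18 in Jeko-1/R, with -0.19 in Raji/R, while a dimmer probe set gave 0.99 in Raji/R. WSB1, a ubiquitin ligase subunit, stood at 0.00 in Jeko-1/R, with -0.15 in Raji/R. Its 3 other measured probe sets lay between -0.43 and -0.08 in Jeko-1/R, while its 4 others in Raji/R lay between -0.14 and 0.50, and their mean with the brightest was 0.10 there. The 0.50 was a bound, with 110 in Raji/R, against 2.40 in Raji, so this mean depends on the floor.

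Of the secreted factors, ADM was lower in Jeko-1/R by over 2-fold. ADM, the vasodilator adrenomedullin, had 210 in Jeko-1/R, against 773 in Jeko-1, a log2 ratio of -1.88 or 3.68-fold lower. With the floor raised to the 75th percentile of all values, a signal of 367, the ratio was a bound of -1.07. It had 123 in Raji/R, against 6.08 in Raji, which is under the floor, so that the ratio was at least 1.58-fold upward. VEGFA, the endothelial growth factor, was lower in both sublines by its brightest probe set, with 6338 in Jeko-1/R, against 8001 in Jeko-1 (-0.34), and 3992 in Raji/R, against 5524 in Raji (-0.47). Its 3 dimmer probe sets gave -0.55, -0.89 and -1.47 in Jeko-1/R. In Raji/R the same 3 gave -0.11, 0.68 and -0.01, so the direction depended on the probe set there. ANGPTL4, a secreted lipase inhibitor, reached the floor only in Jeko-1, at 101, and Jeko-1/R was at least 1.31-fold below it. LOX, the collagen cross-linking oxidase, was under the floor on all 4 arrays.

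The measured collagen hydroxylase and jumonji-domain genes, 4 in all, were lower in Jeko-1/R, while in Raji/R they went both ways. P4HA1, the catalytic subunit of collagen prolyl hydroxylase, had 1129 in Jeko-1/R, against 2885 in Jeko-1, a log2 ratio of -1.35 or 2.56-fold lower. In Raji/R it had 4560, against 5233 in Raji (-0.20). KDM3A, a histone H3 demethylase induced by hypoxia, had 4832 in Jeko-1/R, against 9331 in Jeko-1 (-0.95), just short of 2-fold, and 2517 in Raji/R, against 2036 in Raji (0.31). KDM4B, another histone demethylase, stood at -0.37 in Jeko-1/R, with 0.38 in Raji/R. Its 7 other probe sets in Jeko-1/R were all at or below 0. The lowest, at 107 in Jeko-1/R, against 274 in Jeko-1, gave -1.35, and the rest lay between -0.30, a bound, and 0.00. In Raji/R its 6 other measured probe sets lay between -0.27 and 0.96. JMJD6, a jumonji-domain oxygenase, stood at -0.25 in Jeko-1/R, with 0.34 in Raji/R. Its 2 other measured probe sets in Jeko-1/R gave -0.51 and at least 0.01. P4HA2, the sister subunit of P4HA1, was under the floor in both Jeko-1 arrays, and had 2059 in Raji/R, against 2347 in Raji (-0.19).

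The mitochondrial and lipid genes were lower in Jeko-1/R, and most were above 0 in Raji/R. The 6 genes had a median log2 ratio of -0.50 in Jeko-1/R, and 5 of 6 were above 0 in Raji/R, with a median of 0.37, against 56.1% of all genes above 0. BNIP3 was measured in the Raji pair only through Raji/R, and of the 5 genes with both Raji arrays at or above the floor 4 were above 0. HILPDA, which inhibits lipolysis at lipid droplets, had 567 in Jeko-1/R, against 794 in Jeko-1 (-0.49), and 30917 in Raji/R, against 8289 in Raji (1.90, or 3.73-fold higher). Its other probe set stood at -0.53 in Jeko-1/R, with 1.75 in the Raji pair. The mitophagy receptor gene BNIP3 had 9044 in Jeko-1/R, against 12778 in Jeko-1 (-0.50, with -0.84 from its other probe set). In Raji/R it had 87.2, against 12.5 in Raji, at least 1.13-fold higher. Its relative BNIP3L also stood at -0.50 in Jeko-1/R, with -0.51 from its other probe set, and at 0.03 in Raji/R, where its other probe set gave -0.12. FAM162A, a mitochondrial protein linked to hypoxic cell death, had 3240 in Jeko-1/R, against 5086 in Jeko-1 (-0.65), and 41178 in Raji/R, against 27807 in Raji (0.57). Its 3 other measured probe sets gave -0.73 to -0.51 in Jeko-1/R and 0.09 to 0.53 in Raji/R. AK4, a mitochondrial adenylate kinase, had 21.4 in Jeko-1/R, against 133 in Jeko-1, which is at least 1.71-fold lower. It had 7110 in Raji/R, against 4554 in Raji (0.64). The 3 other AK4 probe sets gave -0.45, -0.05 and 0.54 in Raji/R. INSIG2, which retains the sterol sensor in the endoplasmic reticulum, stood at -0.42 in Jeko-1/R, with -0.06 in Raji/R.

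Of the growth and other genes, DDIT4, a brake on mTORC1, had 6999 in Jeko-1/R, against 9792 in Jeko-1 (-0.48), and 34335 in Raji/R, against 30406 in Raji (0.18). NDRG1, a stress-induced growth regulator, had 159 in Jeko-1/R, against 249 in Jeko-1 (-0.65), and 196 in Raji/R, against 90.9 in Raji (1.11). PPFIA4, a liprin gene, was under the floor on all 4 arrays. The NDRG1 signals were the closest to the floor among the genes changed 2-fold. With a lowess adjustment of the ratio for mean signal the Raji/R ratio of NDRG1 was 0.70, while HILPDA stood at 1.81, ANKRD37 at 1.68 and BHLHE40 at 1.05. With a pseudocount in place of the floor NDRG1 was also at 0.70, and BHLHE40 was at 0.90 and, as the mean of its probe sets, at 0.87. That mean is a bound, since the dimmer BHLHE40 probe set was under the floor in Raji.

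Probe sets other than the brightest gave a further reading of the same RNA. In the Jeko-1 pair 28 of 32 other probe sets of 15 genes had the direction of the brightest one (87.5%), against 60.0% of 10606 other probe sets of all genes. In the Raji pair 20 of 36 did (55.6%), against 57.2% of 11856. Some of these probe sets had 1 array under the floor, which fixed the sign of their ratio. Probe sets of 1 gene share its RNA and array and are not replicates of a culture.

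**Figure D3:**
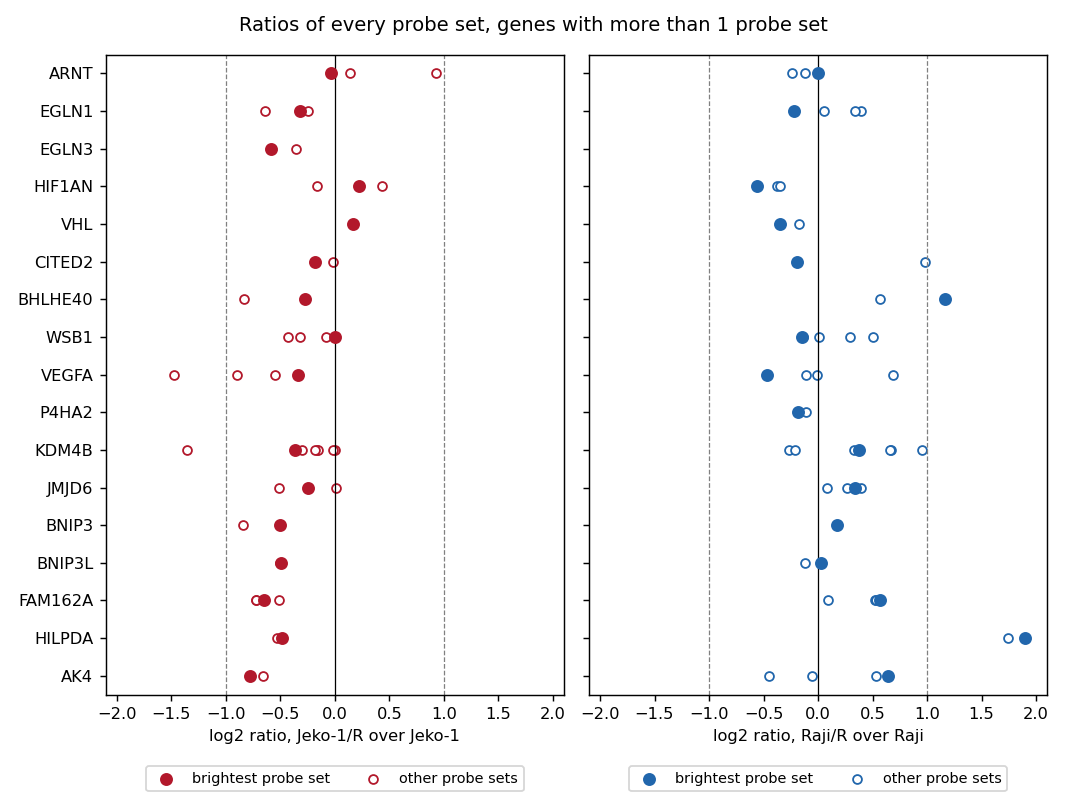
Log2 ratio of resistant over parental signal for every measured probe set of the 17 genes with more than 1 measured probe set, for Jeko-1/R over Jeko-1 on the left and Raji/R over Raji on the right. Filled points are the brightest probe set of a gene and open points the others; in Jeko-1/R 28 of the 32 open points that stand beside a filled one are below 0, while in Raji/R 15 of 36 are.

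The opposite directions in the lines were described by setting their ratios side by side. Of 24 genes measured in both pairs, 14 were below 0 in Jeko-1/R and above 0 in Raji/R, against 25.3% of 10655 genes. For ADM and BNIP3 in the Raji pair and AK4 in the Jeko-1 pair an array under the floor fixed the sign. Of the 21 genes with all 4 arrays at or above the floor, 11 had these directions, against 2212 of 9219 genes. Below 0 in both sublines were 7 of 24 genes, against 24.8%, and 3 were above 0 in Jeko-1/R and below 0 in Raji/R, against 24.9%. Beyond the probe-set spread of each pair, 7 of the 24 were lower in Jeko-1/R yet higher in Raji/R, ANKRD37, ADM, HILPDA, NDRG1, BHLHE40, AK4 and FAM162A, against 2.79% of all genes. BHLHE40 in Jeko-1/R and FAM162A in Raji/R lay just past the spread, and the count over the other settings ranged from 3 to 8, with 4 under lowess. ANKRD37 and HILPDA were counted in each of the 7 other settings. ANKRD37 passed 2-fold in both directions, as did 10 of the 10655 genes (0.0939%). Across the 24 genes the ratios of the lines had a Pearson's r of -0.38 and a Spearman's rho of -0.48 (-0.37 and -0.44 over the 21), against -0.03 and -0.01 across all 10655 genes. These are descriptions across genes of the same 4 arrays. With 1 array per group the difference between the lines could not be tested.

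**Figure D4:**
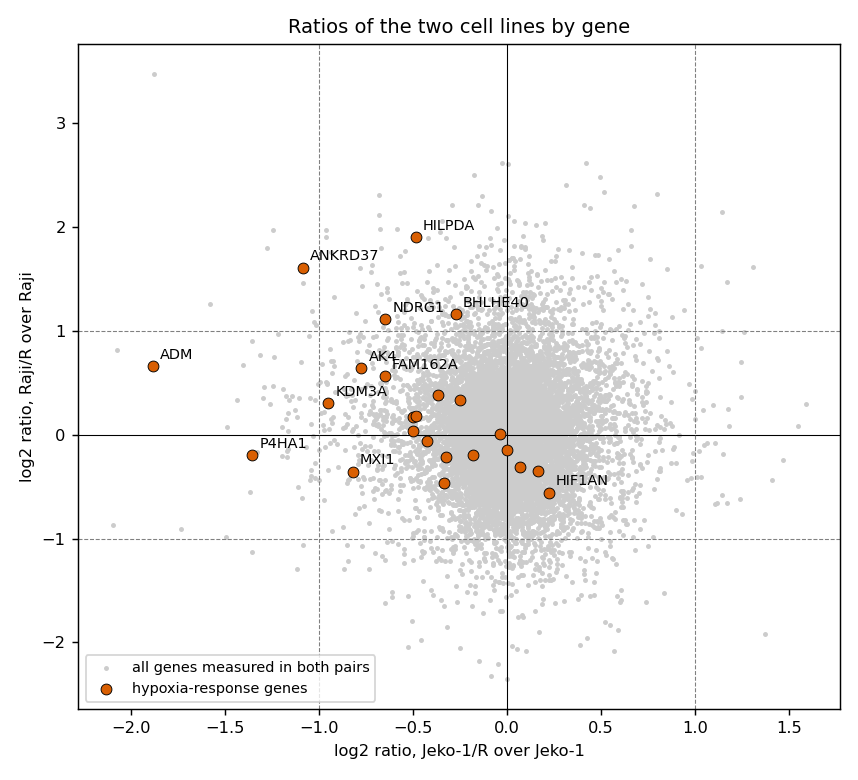
Log2 ratio of Raji/R over Raji against the log2 ratio of Jeko-1/R over Jeko-1, with the 10655 genes measured in both pairs in grey and the 24 hypoxia-response genes in orange. Dashed lines mark 2-fold; ANKRD37 lies beyond 2-fold on both axes, and 14 of the 24 orange points lie above and to the left of the centre.

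A test of resistance over both lines was possible with limma, with cell line and resistance as terms over all 4 arrays and 15575 genes. Its error rests on the difference between the ratios of the lines. It could therefore hardly call a gene whose ratios had opposite signs in the lines, and decides nothing about such genes. At a Benjamini-Hochberg adjusted p under 0.05 it called 0 genes (0.0%), and 0 of the 28 hypoxia genes with an array at the floor; at an unadjusted p under 0.05 there were 324 genes and 0 of the 28. The lowest p among them belonged to P4HA1, with a log2 difference of -0.78 ± 0.33 (SE, 4 arrays) and a limma adjusted p of 0.974. MXI1 followed at -0.59 ± 0.26 (limma adjusted p = 0.974) and VEGFA at -0.40 ± 0.24 (limma adjusted p = 0.974). The brightest probe sets of these 3 genes were lower in both sublines, while the mean over the VEGFA probe sets was 0.02 in Raji/R. ANKRD37, with opposite signs in the lines, averaged 0.26 ± 0.57.

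The same limma fit gave the level of each gene by cell line, with the Jeko-1 subline and parent set against the Raji subline and parent. A line and its subline are not independent cultures, so these p-values do not measure spread between cultures. The error of a gene rests on the difference between its Jeko-1 and Raji ratios, moderated over all genes. Where arrays were raised to the floor, that difference depends on the floor. Without a floor the lowest limma adjusted p among the 28 genes was 0.041. Higher in the Jeko-1 arrays were 9 of the 28 genes, against 23.3% of 15575 genes, and 11 were lower, against 30.1%, at a limma adjusted p under 0.05. BNIP3 differed most, with 9044 and 12778 in the Jeko-1 arrays and 87.2 and 12.5 in the Raji arrays, at least 131-fold higher in Jeko-1 (log2 difference 7.03 ± 0.27 SE, limma adjusted p = 2.4e-05). BHLHE40 was 14.1-fold higher in the Jeko-1 arrays (limma adjusted p = 0.00020) by its brightest probe set, while its other probe set had 77.6 and 138 in the Jeko-1 arrays and 115 and 46.3 in the Raji arrays. INSIG2 was 9.77-fold higher, with 1551 and 2080 in the Jeko-1 arrays and 180 and 188 in the Raji arrays (limma adjusted p = 8.8e-05). ADM and EGLN3 were at least 4.13-fold and 3.90-fold higher in Jeko-1, and KDM3A, BNIP3L, WSB1 and ARNT lay between 2.97-fold and 1.67-fold higher. The other BNIP3L probe set ran the opposite way, with 1902 and 2704 in the Jeko-1 arrays and 2908 and 3167 in the Raji arrays.

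The genes lower in the Jeko-1 arrays were led by AK4 and P4HA2. AK4 had 21.4 and 133 in the Jeko-1 arrays and 7110 and 4554 in the Raji arrays, at least 56.1-fold lower in Jeko-1 (log2 difference -5.81 ± 0.36 SE, limma adjusted p = 4.8e-05). P4HA2 had 16.2 and 48.7 in the Jeko-1 arrays and 2059 and 2347 in the Raji arrays, at least 28.4-fold lower in Jeko-1 (-4.83 ± 0.25 SE, limma adjusted p = 3.1e-05). HILPDA was 23.9-fold lower in Jeko-1, FAM162A 8.34-fold and DDIT4 3.90-fold. P4HA1, CITED2, JMJD6, HIF1AN, VHL and MXI1 lay between 2.71-fold and 1.67-fold lower. HIF1A did not pass the test, with a log2 difference of 0.10 ± 0.25 (limma adjusted p = 0.753), and neither did EGLN1 (0.41 ± 0.24, limma adjusted p = 0.203), VEGFA, KDM4B, NDRG1, ANKRD37, ANGPTL4 or EGLN2. Without a floor limma called 3 of the 28 genes higher and 5 lower, against 4379 of 15575 genes called either way. The WSB1 call was made on an s_at probe set, one that can match related transcripts, and its brightest probe set without that suffix gave a difference of -0.0046 (limma adjusted p = 0.990).

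**Figure D5:**
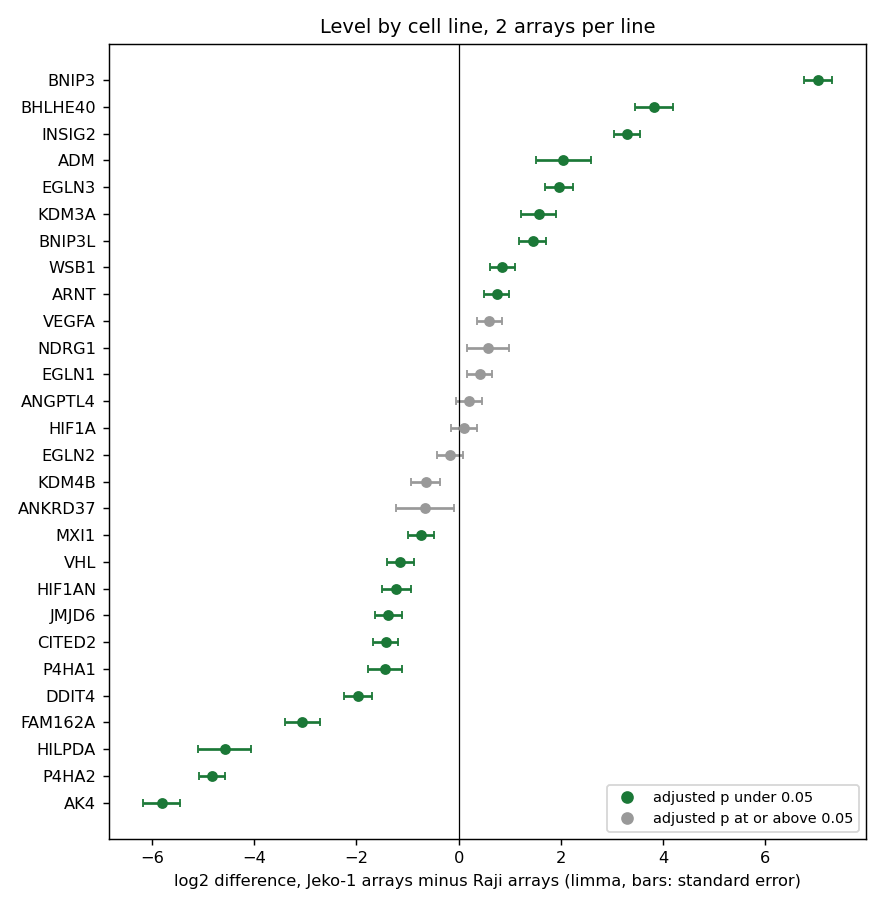
Log2 difference between the Jeko-1 arrays (Jeko-1/R and Jeko-1) and the Raji arrays (Raji/R and Raji) for the 28 genes with an array at the floor, from limma, with bars for 1 standard error. Green points passed an adjusted p of 0.05: 9 genes are higher and 11 lower in the Jeko-1 arrays, from BNIP3 at 7.03 to AK4 at -5.81.

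Other genes around the pathway were examined as whole lists. Of 15 measured partners of the factors, such as HIF3A, ARNT2, the VHL ligase subunits and the coactivators CREBBP and EP300, 13 could be read in Jeko-1/R or Jeko-1 and 14 in Raji/R or Raji, and 0 changed 2-fold. Their median was -0.06 for Jeko-1/R, with 0.15 for Raji/R. Over all genes 0.38% were 2-fold higher and 0.595% lower in Jeko-1/R, and 7.01% and 2.64% in Raji/R. HIF3A reached the floor only in Raji/R, at 106, against 29.5 in Raji, and ARNT2 was under it on all 4 arrays. Of 37 other hypoxia targets with a value, 28 were measured in the Jeko-1 pair, with 18 below 0, against 49.8% of all genes. Their median there was -0.12, against 0.00 for all genes, and 0 changed 2-fold. In the Raji pair 30 were measured, with 17 above 0, against 56.1% of all genes, 2 at least 2-fold higher, against 7.01%, and a median of 0.14. The shares in the Raji pair were near those of all genes. The endothelin gene EDN1 had 193 in Raji/R, against 83.2 in Raji (1.22). The other was the heme oxygenase gene HMOX1, named after its values were seen, with 178 in Raji/R, against a signal under the floor in Raji, at least 2.30-fold higher.

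Glycolytic genes, none of which is among the members, were also lower in Jeko-1/R and mostly above 0 in Raji/R. In Jeko-1/R 19 of 20 were below 0, against 49.8% of all genes, with a median of -0.54. In Raji/R 17 of 19 were above 0, against 56.1%, with a median of 0.61. Of the 19 measured in both pairs, 17 were below 0 in Jeko-1/R and above 0 in Raji/R, against 25.3%. The glucose transporter SLC2A3 had a log2 ratio of -1.08 in Jeko-1/R but 1.46 in Raji/R, while hexokinase HK2 had -0.87 in Jeko-1/R but -1.29 in Raji/R.

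Genes related to single members by function had medians nearer to 0 in Jeko-1/R, and these differences were not tested. Of 21 JmjC demethylases other than KDM3A, KDM4B and JMJD6, 11 were below 0 in Jeko-1/R, against 49.8% of all genes, with a median of 0.00. In Raji/R 15 of 21 were below 0, against 43.9% of all genes, with a median of -0.10. Of 15 mitophagy genes other than BNIP3 and BNIP3L, 6 were below 0 in Jeko-1/R (median 0.02), against 49.8% of all genes. There 0 changed 2-fold, against 0.38% of all genes higher and 0.595% lower. In Raji/R 3 of the 14 measured changed 2-fold, against 7.01% of all genes higher and 2.64% lower. FKBP8 and OPTN were at least 3.49-fold and 2.93-fold higher, and PINK1 was at least 2.34-fold lower, also named after their values were seen. Collagen-modifying enzymes other than P4HA1, P4HA2 and LOX had 5 of 8 below 0 in Jeko-1/R (median -0.16), against 49.8% of all genes. The mTORC1 brakes beside DDIT4 had 3 of 11 below 0 in Jeko-1/R (median 0.14), against 49.8% of all genes, with CASTOR2, an arginine sensor relative, at 1.55. In Raji/R DEPDC5, of the nutrient-sensing GATOR complex, stood at 1.47. In these 4 lists limma called 0 genes for resistance over both lines, as it did among all genes.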

How the data were processed

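Total RNA of 4 cell cultures was isolated with Trizol and labelled as biotinylated cRNA, per the labels' protocols. The authors deposited log2 MAS5 signals for 54613 probe sets on each of 4 arrays; MAS5 is named in the submitters' processing notes, without a version. Taken as base 2, the values give a trimmed mean signal (2% off each end) of 494 to 497 on every array, as scaling to 1 target would, and this set the log base. MAS5 scales an array by 1 factor, so differences that depend on signal level remain.

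Gene symbols came from the platform's annotation table, checked by gene ID against RefSeq (GRCh38.p14). Of the probe sets, 41091 had 1 symbol and were used, 1801 had several and 11721 had none. Named were all 32 members, HIF3A, ARNT2, and up to 4 genes per other list that changed 2-fold with both arrays at or above the floor. The members and lists were chosen with earlier results of these data known. Groups came from the labels, and the cell line pairs the arrays, since each subline derives from its parent. limma 3.58.1 (R 4.3.3) used 1 residual degree of freedom per gene before moderation, two-sided, with Benjamini-Hochberg adjustment over 15575 genes. Alternatives were no floor or one at the 75th percentile, a pseudocount, quantile normalization, lowess (fraction 0.3), other probe set choices and a variance trend. A further alternative fitted resistance alone for resistance, and cell line alone for the difference between lines. Steps were tested on simulated data. Promoter sequences are from RefSeq. Python 3.11.15, pandas 2.3.3 and statsmodels 0.14.6 were used.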

Additional observations from a re-analysis of the deposited data

Results flagged for a closer look

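In 7 genes Jeko-1/R was lower than Jeko-1 and Raji/R higher than Raji by more than the spread between probe sets of each pair, and the difference between the lines was not tested, with 1 array per group. The log2 ratio in Raji/R minus that in Jeko-1/R was 2.69 for ANKRD37, 2.54 for ADM, 2.38 for HILPDA, 1.76 for NDRG1, 1.43 for BHLHE40, 1.42 for AK4 and 1.22 for FAM162A. For ADM in Raji and AK4 in Jeko-1/R the signal was under the floor, so these 2 differences are lower bounds. In Raji/R FAM162A and ADM stood within that spread with quantile normalization (0.32 and 0.44) and lowess (0.36 and 0.40), FAM162A also as the mean of probe sets (0.43) or by its probe set free of both suffixes, x_at or s_at (0.09), AK4 as the mean of probe sets (0.17), and BHLHE40 did in Jeko-1/R with lowess (-0.26). For AK4 the brightest probe set without an s_at suffix stood at -0.45 in Raji/R, so its direction there depends on the probe set.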

How the results depend on the processing

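The median of the hypoxia genes in Jeko-1/R stayed between -0.51 and -0.37 under all 7 alternatives, with 2 to 4 genes at least 2-fold lower and 0 at least 2-fold higher. Over all genes the lower ones ran from 16 of 7858 (75th percentile floor) to 257 of 11588 (no floor). The higher ones ran from 10 to 175 in the same settings. Below 0 were 14 of 16 genes without x_at and s_at probe sets, where fewer genes have a value. In Raji/R the median ranged from -0.01 (quantile normalization) to 0.17 (mean of probe sets). At least 2-fold higher were 4 hypoxia genes as reported, against 1026 of 14642 genes. With the floor at the 75th percentile 2 were, against 53 of 7821, and without a floor 7, against 2404 of 14642. Without x_at and s_at probe sets 2 were, against 880 of 11777. NDRG1 was under 2-fold in Raji/R with quantile normalization (0.99), lowess (0.70) and the pseudocount (0.70), and BHLHE40 with the pseudocount (0.90) and the mean of probe sets (0.87, a bound), beside their losses with the higher floor. Over all genes of the Raji pair, higher and lower counts were 1026 and 386, against 827 and 715 with quantile normalization and 462 and 654 with lowess. Between the cell lines, limma called 9 hypoxia genes higher and 11 lower in the Jeko-1 arrays, where it called 8319 of 15575 genes. Without a floor it called 3 and 5, and 4379 of 15575 genes. Without x_at and s_at probe sets it called 5 and 7 (of 19 genes), and 6289 of 12727 genes. The WSB1 difference was -0.0046 in the last setting, where its probe set was under or just above the floor on every array. With cell line as the only term, so that resistance was left out (no replicate block), the calls between lines were 8 and 9. Over all genes 8175 of 15575 were called there. Limma calls for resistance were 0 in all 5 alternatives. With resistance as the only term, without cell line to pair the arrays, they were 0 of 28. With a variance trend 3 of the 28 genes had an unadjusted limma p under 0.05 for resistance, against 517 of 15575 genes. No array could be left out, since each group has 1.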
